A study of Mus musculus with 12 samples.

Results

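The 10 genes described here are the mouse orthologs of genes that lie in the segment amplified in most well-differentiated and dedifferentiated human liposarcomas, malignant tumours of the fat lineage. They are Mdm2, Hmga2, Cpm, Yeats4, Frs2, Os9, Tspan31, Avil, Ctdsp2 and Tsfm, 10 of the 37750 rows of the deposited table. Each was taken as the row that bears its name, and 9 have a row of their own. Ctdsp2 shares its row with 2 microRNA genes that lie within it, Mir26a-2 and Mir546, and is called the joined Ctdsp2 row. The members were picked for their place in the human tumour, though earlier results of these data were known at the time.

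RNA was measured in 12 libraries from Ad/NICD mice, which carry the active intracellular domain of the Notch1 receptor, on a mixed 129 x C57BL/6 strain. The controls, 4 libraries of white adipose tissue (WAT), came from mice of the same genotype at 3 weeks of age, and the 8 liposarcoma libraries (LPS) from mice 9 to 12 months old. All animals of both groups thus carry the transgene, and tissue and age cannot be told apart between the groups. No source used here gives the promoter that drives the transgene. Values are FPKM, in which a gene's fragments are divided by transcript length and by the mapped fragments of the library, so levels can be set side by side between genes. In bulk tissue, fewer cells of a type and less RNA per cell cannot be told apart.

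In the human disease the amplified segment is carried on ring or giant marker chromosomes and nearly always includes MDM2, which encodes the ubiquitin ligase that marks p53 for destruction. CDK4, the kinase that drives cells out of G1, is amplified with it in most tumours, and HMGA2, CPM, YEATS4, FRS2, OS9, TSPAN31, AVIL, CTDSP2 and TSFM follow more or less often. As a rule, amplification raises the RNA of many genes of such a segment together in the tumour that carries it. In the mouse all 10 orthologs lie on chromosome 10, in 3 groups (GRCm38). Frs2, Yeats4, Cpm and Mdm2 lie within chr10:117070129-117710758. Hmga2 lies alone at chr10:120361275-120476469. Ctdsp2, Avil, Tsfm, Tspan31 and Os9 lie within chr10:126978717-127121160, with Cdk4 between Tsfm and Os9.

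Several of these genes are close neighbours, and their sequences are shown because overlap and promoter content bear on how the rows are read. Cdk4 on the forward strand and Tspan31 on the reverse strand share 641 bases of exon, and Avil and Tsfm share 165 bases of exon on opposite strands (GENCODE M21). No source used here says whether the counting used the strand of the reads, so in those stretches reads of the partners may not have been told apart. Cpm and Mdm2 end 1522 bases from each other on opposite strands and share no exon. Promoters were taken from RefSeq (GRCm38.p6), from 250 bases before to 50 bases after the transcript start, and 10 of 10 members matched, with 11 promoters since Ctdsp2 has 2. The motifs searched on both strands were the E-box CACGTG, the GC box GGGCGG, the RBPJ core TGGGAA that the Notch intracellular domain's DNA-binding partner recognises, the TATA box TATAAA and the AP-1 site TGACTCA. No motif contains another. The Cpm promoter is shown because Cpm differed most between the groups; its 6 GC boxes, read on either strand, are in capitals. The promoters of Cdk4 and Tspan31 are shown as those of an overlapping pair. The Cdk4 promoter holds 4 E-boxes, in capitals, and the Tspan31 promoter holds none.
Cpm, chr10:117629250-117629549, forward strand: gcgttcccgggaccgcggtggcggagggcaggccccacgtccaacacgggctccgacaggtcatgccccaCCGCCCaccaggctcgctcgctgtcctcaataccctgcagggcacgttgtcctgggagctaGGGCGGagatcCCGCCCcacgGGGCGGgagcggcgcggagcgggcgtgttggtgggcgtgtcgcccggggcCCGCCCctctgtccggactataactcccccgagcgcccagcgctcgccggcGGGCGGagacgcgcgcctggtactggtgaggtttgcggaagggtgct
Cdk4, chr10:127063285-127063584, forward strand: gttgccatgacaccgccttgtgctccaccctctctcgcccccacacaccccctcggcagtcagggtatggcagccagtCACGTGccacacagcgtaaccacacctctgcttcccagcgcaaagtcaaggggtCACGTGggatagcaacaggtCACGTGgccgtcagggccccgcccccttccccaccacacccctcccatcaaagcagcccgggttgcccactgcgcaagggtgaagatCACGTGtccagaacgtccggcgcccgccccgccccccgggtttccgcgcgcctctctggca
Tspan31, chr10:127070212-127070511, reverse strand: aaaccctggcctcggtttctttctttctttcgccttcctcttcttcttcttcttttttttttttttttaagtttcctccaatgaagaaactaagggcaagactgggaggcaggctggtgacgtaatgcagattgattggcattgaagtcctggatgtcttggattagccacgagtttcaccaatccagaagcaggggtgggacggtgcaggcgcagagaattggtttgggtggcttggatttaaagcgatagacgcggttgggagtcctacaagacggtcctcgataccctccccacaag

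Among all 32851 promoters of that length, 7.15% held at least 1 CACGTG, 35.7% a GGGCGG, 25.6% a TGGGAA, 13.6% a TATAAA and 5.20% a TGACTCA. Cdk4 was 1 of 8 promoters with 4 or more E-boxes (0.0244%), a count made after its 4 were seen. None of the 11 member promoters held an E-box or an AP-1 site. The RBPJ core occurred in 1 of the 11, a Ctdsp2 promoter, and the TATA box in that of Tsfm. Besides Cpm, the GC box occurred in the promoters of Frs2, Yeats4, Mdm2, Hmga2, Tsfm and Os9 and in the same Ctdsp2 promoter. It was absent from those of Avil and Tspan31 and from the other Ctdsp2 promoter. The share of all promoters with as many GC boxes as Cpm was not counted. The Cdk4 promoter, not among the 11, also held 1 RBPJ core and 3 GC boxes, left in small letters above. A match is a stretch of letters and no evidence of binding.

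The joined Ctdsp2 row also covers a microRNA whose sequence is of interest because it sits inside a phosphatase gene of the human segment. miR-26a, excised from a Ctdsp2 intron, pairs with targets through its seed, bases 2 to 8, shown in capitals.
mmu-miR-26a-5p, chr10:126995543-126995564, forward strand: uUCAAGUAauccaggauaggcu
The libraries measure long RNA, so the row gives no level of the mature microRNA.

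Some facts of the libraries bear on the members. FPKM summed to between 771665 and 996090 per library, and by the size of the lowest values the deepest, WAT 1, had 2.60 times the depth of the shallowest, LPS 1. A transcript of 2 kb gained 0.0181 to 0.0470 FPKM with each fragment. LPS 5 stood apart: its median ratio to the other libraries was 0.814, against 0.991 to 1.06 elsewhere, and 754 of its 1408 olfactory and pheromone receptor rows were above 0, against 63 to 160 in the other libraries. Summed skeletal muscle markers were at 886 FPKM in WAT 1 and 794 in WAT 4, against 18.9 in WAT 2 and 122 in WAT 3. LPS 8 stood apart among the tumours, with muscle markers at 315 FPKM, against 12.3 to 82.8 in the other 7, and mast cell markers at 143 FPKM, against 5.54 to 32.9. The labelled tissue was met in WAT, where 7 adipocyte markers summed to 4350 to 5300 FPKM, whereas they summed to 2.43 to 38.5 in LPS, and all 7 were called lower. With any 1 WAT library left out, 5 of these markers were tested, all lower. The rest had passed the filter through WAT alone, which favoured a lower call. Pericyte markers ran the other way (219 to 235 FPKM in WAT, 3450 to 7015 in LPS, 7 of 7 called higher). Leaving out LPS 5 or LPS 8 changed no member's call. The part of muscle, mast cell, adipocyte and pericyte RNA in the members' differences was not tested.

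The orthologs went different ways in the tumours. Of the 8 that passed the filter of 1 FPKM in at least 4 of 12 libraries, Cpm, Tspan31 and Frs2 were higher in LPS than in WAT, Tsfm was lower, and Mdm2, Yeats4, Os9 and the joined Ctdsp2 row were not called (limma on log2(FPKM + 1), Benjamini-Hochberg adjusted p below 0.05 over 14821 rows). Hmga2 and Avil stayed below 1 FPKM in all 12 libraries and were not tested. Over all tested rows, 18.9% were called higher and 27.0% lower, so 3 higher and 1 lower of 8 give too few genes to set against that background. The median difference of the 8 was 0.13 on the log2 scale, against -0.05 over all tested rows. Of all calls 58.8% were lower, as against 45.2% after quantile normalization, where all tested rows had a median of 0.10; the call, or lack of it, of each of the 8 members was the same there. Groups that did not overlap were found for Cpm and Tspan31 on the high side and Tsfm on the low side, against 11.8% of all rows with every LPS library above every WAT library and 20.9% with every one below.

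**Figure D1:**
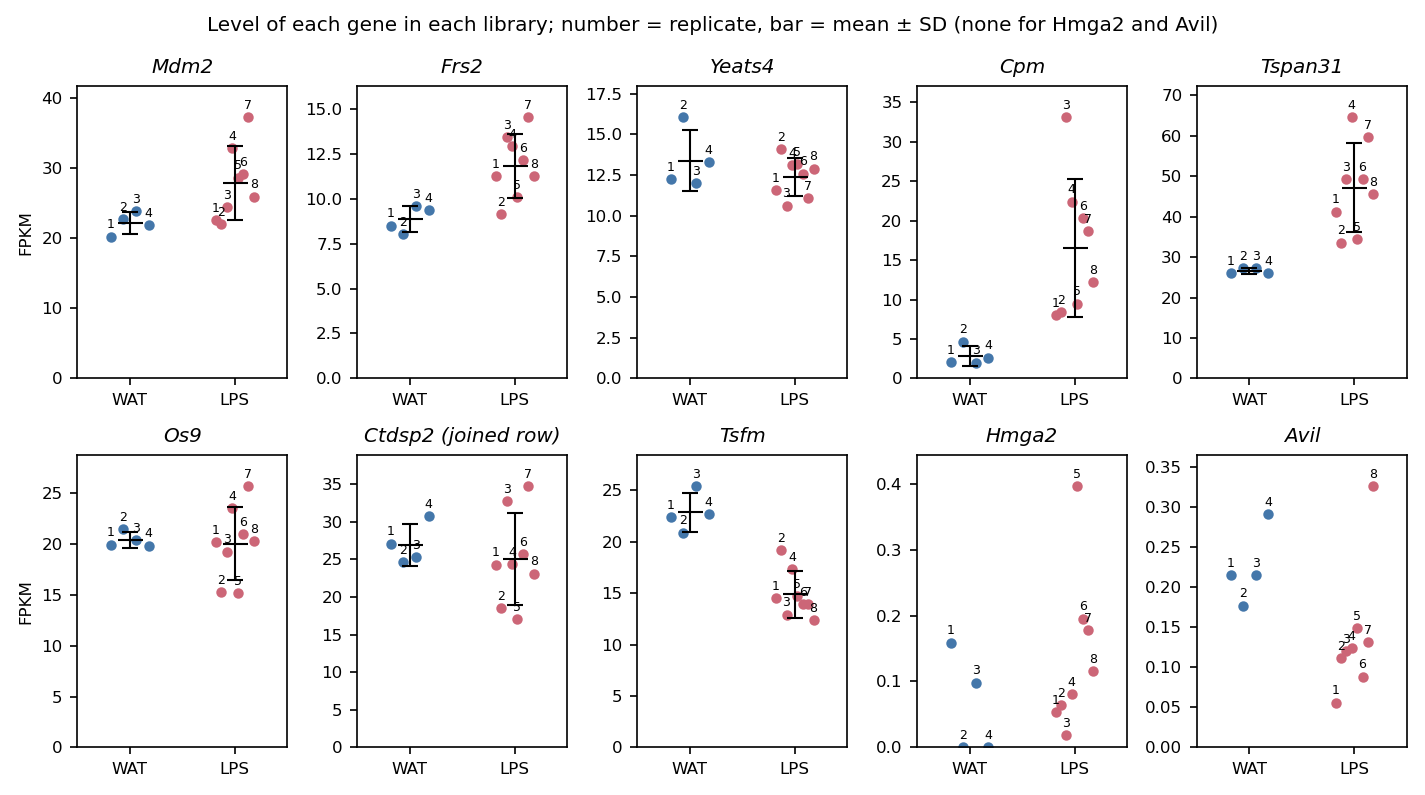
FPKM of each of the 10 orthologs in every library, marked by its replicate number, on linear axes from 0, with WAT and LPS side by side; points are libraries and bars give mean ± SD (4 WAT, 8 LPS), left out for Hmga2 and Avil, whose libraries are below 1 FPKM. The WAT and LPS points separate for Cpm, Tspan31 and Tsfm and overlap for Mdm2, Yeats4, Frs2, Os9 and Ctdsp2.

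Mdm2, the gene that defines the human segment, was expressed at a moderate level in both tissues. It was at 20.2, 22.7, 23.8 and 21.8 FPKM in WAT 1 to 4, and at 22.6, 21.9, 24.4, 32.8, 28.6, 29.0, 37.2 and 25.9 FPKM in LPS 1 to 8. The groups overlapped: 6 of 8 tumours lay above the highest WAT library, and LPS 1 and LPS 2 within the WAT range. The means were 22.1 ± 1.51 FPKM (SD, n = 4) in WAT and 27.8 ± 5.24 FPKM (SD, n = 8) in LPS. The difference of 0.30 ± 0.14 on the log2 scale (SE) did not pass (limma, adjusted p = 0.0955). With array quality weights, which give noisy libraries less say, it passed (limma, adjusted p = 0.0260), and over all alternatives the adjusted p ran from 0.0260 to 0.436. Even the highest tumour, LPS 7, held 1.69 times the Mdm2 level of the lowest, LPS 2.

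Targets and regulators of p53, the protein that Mdm2 degrades, went both ways. Of 22 tested genes of that list, 6 were higher, 6 lower and 10 not called, with a median log2 difference of 0.16, against -0.05 over all rows. Ddit4l, an inhibitor of mTOR signalling, rose from 1.88 ± 1.77 FPKM in WAT to 11.8 ± 5.51 in LPS (here and below ± gives the SD over 4 WAT and 8 LPS libraries; log2 difference 2.25, limma adjusted p = 0.000924). Fas, the death receptor, fell from 8.53 ± 0.795 to 1.00 ± 0.471 FPKM (log2 difference -2.28, limma adjusted p = 7.63e-07). Trp53inp1, the most abundant gene of the list without a call, was at 26.5 and 40.4 FPKM (limma adjusted p = 0.233).

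Hmga2, a chromatin protein of embryonic mesenchyme that is silent in most adult tissue, was at or near 0 throughout. Its level was 0.159, 0, 0.0983 and 0 FPKM in WAT 1 to 4, and 0.0534, 0.0636, 0.0189, 0.0808, 0.396, 0.195, 0.178 and 0.116 FPKM in LPS 1 to 8. LPS 5 held the highest value, which is still well below 1 FPKM, and LPS 5 is also the library in which many receptor rows were above 0. Of 9 tested genes tied to HMGA2, its regulators and targets, 1 was higher and 4 were lower (0 and 1 of 7 without WAT 1 and WAT 4, 1 and 2 after quantile normalization). The higher gene was Ccna2, cyclin A2, at 10.8 ± 4.41 FPKM in WAT and 31.1 ± 13.9 in LPS (limma, adjusted p = 0.0154). Plag1, a growth-promoting transcription factor, fell from 2.39 ± 0.536 to 0.204 ± 0.0949 FPKM (limma, adjusted p = 5.76e-07), and Ccnd2, cyclin D2, was not called at 55.0 and 69.1 FPKM (limma, adjusted p = 0.670). Plag1 passed the filter through WAT alone, which favoured a lower call.

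Cpm showed the widest difference of the group. Its product is a carboxypeptidase, anchored to the outer cell membrane, that trims arginine or lysine from the end of peptides. In WAT 1 to 4 it was at 2.06, 4.66, 2.01 and 2.64 FPKM, and in LPS 1 to 8 at 8.03, 8.41, 33.1, 22.4, 9.49, 20.3, 18.7 and 12.2 FPKM. Every tumour lay above every WAT library, and the tumours themselves spread from LPS 1 to LPS 3 by 4.12 times, the widest spread of the 8 tested members. WAT had a mean of 2.84 ± 1.25 FPKM (SD, n = 4) and LPS of 16.6 ± 8.73 (SD, n = 8), a log2 difference of 2.09 ± 0.35 (SE; limma, adjusted p = 0.000309). The call stood in each of the 24 alternatives.

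Other secreted or membrane carboxypeptidases went both ways. Of 7 tested, 2 were higher and 5 lower (2 and 2 of 5 without WAT 1 and WAT 4). The genes that then left the test had passed the filter through WAT alone, which favoured a lower call. Cpe, which matures peptide hormones, rose from 20.1 ± 1.24 to 231 ± 121 FPKM (log2 difference 3.24, limma adjusted p = 3.12e-05), and Cpd, a Golgi member of the family, rose from 26.5 ± 2.90 to 47.9 ± 8.33 FPKM (limma, adjusted p = 0.000468). Cpz fell from 13.8 ± 4.12 to 0.266 ± 0.353 FPKM (limma, adjusted p = 6.35e-08). Cpn2, Cpxm1, Cpq and Cpa3, the last a mast cell protease, were the other 4 that fell. Cpa3 was nonetheless highest of all 12 libraries in LPS 8, at 28.7 FPKM. Cpd was added to those named after its values were seen.

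Frs2 is the adaptor that carries the signal of active FGF receptors to the RAS and MAP kinase cascade. It was at 8.50, 8.03, 9.59 and 9.37 FPKM in WAT 1 to 4, and at 11.3, 9.13, 13.4, 12.9, 10.1, 12.1, 14.5 and 11.2 FPKM in LPS 1 to 8. The groups overlapped by a single tumour: 7 of 8 lay above the highest WAT library, and LPS 2 lay below it. WAT had a mean of 8.87 ± 0.733 FPKM (SD, n = 4) and LPS of 11.8 ± 1.78 (SD, n = 8), a log2 difference of 0.37 ± 0.12 (SE; limma, adjusted p = 0.0261). Without WAT 1 the adjusted p was 0.0751, without WAT 2 it was 0.0869, and without WAT 1 and WAT 4 together 0.145 (limma), and the call was lost in each case.

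Most tested genes of FGF receptor signalling were called, in both directions. Of 13 tested, 8 were higher in LPS and 3 lower, with a median log2 difference of 1.83 (9 and 3 after quantile normalization, 7 and 1 of 12 without WAT 1 and WAT 4). Over all tested rows, 18.9% were called higher and 27.0% lower. The 8 higher genes were Gab1, a docking protein, the feedback inhibitors Spry1, Spry2, Spry4, Spred1 and Dusp6, and Etv4 and Etv5, transcription factors induced by the MAP kinase cascade. Spry4 rose from 7.81 ± 1.55 FPKM in WAT to 75.1 ± 33.3 in LPS (log2 difference 3.02, limma adjusted p = 2.16e-06). The receptor Fgfr1 fell from 45.9 ± 7.56 to 6.37 ± 3.14 FPKM (log2 difference -2.79, limma adjusted p = 1.44e-05), and Fgfr3 and the phosphatase Ptpn11 also fell. Grb2, the adaptor that binds Frs2, was at 18.5 and 22.0 FPKM and not called (limma, adjusted p = 0.110), nor was Sos1. The other 7 of the 8 that rose, Fgfr3, Ptpn11 and Sos1 were named after their values were seen.

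Yeats4 reads acetylated histone tails as a subunit of the TIP60 and SRCAP chromatin complexes, and it was not called. WAT 1 to 4 held 12.2, 16.0, 12.0 and 13.3 FPKM, and LPS 1 to 8 held 11.6, 14.1, 10.6, 13.1, 13.1, 12.6, 11.1 and 12.9 FPKM. All tumours lay below the highest WAT library, 5 of them within the WAT range, and this was the narrowest spread of the tested members (1.33 times from lowest to highest tumour). The log2 difference was -0.10 ± 0.11 (SE; limma, adjusted p = 0.475). Among 17 other tested subunits of the complexes, 4 were higher, 2 lower and 11 not called. The first count was 9 after quantile normalization and 1 without WAT 1 and WAT 4. Morf4l2 rose from 76.0 ± 7.98 to 131 ± 16.8 FPKM (limma, adjusted p = 0.000218), Mrgbp fell from 10.6 ± 0.924 to 7.69 ± 1.26 FPKM (limma, adjusted p = 0.0163), and Trrap, the large scaffold, was not called at 31.0 and 38.6 FPKM (limma, adjusted p = 0.166).

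Os9, a lectin that hands misfolded glycoproteins to the degradation machinery of the endoplasmic reticulum, differed between the tissues by less than the spread of the tumours. It was at 19.96, 21.5, 20.4 and 19.9 FPKM in WAT 1 to 4, and at 20.2, 15.3, 19.3, 23.5, 15.2, 21.0, 25.7 and 20.3 FPKM in LPS 1 to 8. The tumours lay on both sides of the narrow WAT range: LPS 4 and LPS 7 above it, LPS 2, LPS 3 and LPS 5 below it. The log2 difference was -0.04 ± 0.14 (SE; limma, adjusted p = 0.817). Of 18 tested genes of that machinery, 2 were higher, 4 lower and 12 not called (5 higher and 4 lower after quantile normalization, 1 and 2 without WAT 1 and WAT 4). Sdf2l1, a chaperone partner, rose from 11.4 ± 1.88 to 20.5 ± 3.80 FPKM (limma, adjusted p = 0.00110), and Derl1, a channel component, fell from 70.9 ± 9.83 to 31.4 ± 1.86 FPKM (limma, adjusted p = 9.79e-07). Hspa5, the main chaperone of that compartment, was not called at 159 and 195 FPKM (limma, adjusted p = 0.0813).

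Tspan31, a tetraspanin that crosses the membrane and whose transcript runs against that of Cdk4, was the second member to separate the groups upward. It was at 26.0, 27.2, 27.2 and 26.0 FPKM in WAT 1 to 4, and at 41.2, 33.6, 49.3, 64.5, 34.4, 49.2, 59.6 and 45.6 FPKM in LPS 1 to 8. Every tumour lay above the tight WAT values, with LPS 4 and LPS 7 highest and LPS 2 and LPS 5 lowest. The mean was 26.6 ± 0.694 FPKM (SD, n = 4) in WAT and 47.2 ± 11.0 (SD, n = 8) in LPS, a log2 difference of 0.77 ± 0.17 (SE; limma, adjusted p = 0.00205), called in each of the 24 alternatives. Of 22 other tested tetraspanins, 5 were higher and 9 lower (3 and 4 of 20 without WAT 1 and WAT 4). Tspan15 rose from 10.2 ± 2.17 to 40.3 ± 19.3 FPKM (limma, adjusted p = 0.000215), Tspan18 fell from 37.1 ± 10.3 to 2.74 ± 1.56 FPKM (limma, adjusted p = 1.73e-06), and Tspan3 was not called at 71.1 and 105 FPKM (limma, adjusted p = 0.102).

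The partner Cdk4, not a member but the other driver gene of the human segment, was at 45.4, 41.4, 35.5 and 40.8 FPKM in WAT 1 to 4. In LPS 1 to 8 it was at 111, 127, 91.1, 99.0, 118, 85.6, 61.1 and 105 FPKM. All tumours lay above all WAT libraries, with a log2 difference of 1.24 ± 0.17 (SE; limma, adjusted p = 5.83e-05). The order of the tumours was not that of Tspan31. LPS 2, highest for Cdk4, was lowest for Tspan31, and LPS 7, lowest for Cdk4, was the next to highest for Tspan31. The ratio of Cdk4 to Tspan31, computed after these values were seen, ran from 1.31 to 1.75 in WAT and from 1.02 in LPS 7 to 3.79 in LPS 2. No tumour was highest, or next to highest, for both.

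Ctdsp2 encodes a small phosphatase of the RNA polymerase II tail, a family linked to the silencing of neuronal genes outside neurons. The joined Ctdsp2 row was at 27.1, 24.6, 25.3 and 30.8 FPKM in WAT 1 to 4, and at 24.3, 18.5, 32.8, 24.4, 17.0, 25.7, 34.7 and 23.1 FPKM in LPS 1 to 8. The tumours spread on both sides of WAT, with LPS 3 and LPS 7 above it and LPS 5 and LPS 2 farthest below. The log2 difference was -0.13 ± 0.18 (SE; limma, adjusted p = 0.571). Of 7 tested genes of the same phosphatase family and its silencing partners, 1 was higher, 2 lower and 4 not called. After quantile normalization 2 were higher and 1 lower, and without WAT 1 and WAT 4 none was called. Ctdspl2 rose from 14.8 ± 1.15 to 19.5 ± 1.88 FPKM (limma, adjusted p = 0.00872), Ctdspl fell from 21.5 ± 3.20 to 13.9 ± 4.18 FPKM (limma, adjusted p = 0.0295), and Ctdsp1 was not called at 25.3 and 23.2 FPKM (limma, adjusted p = 0.423).

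Tsfm encodes the mitochondrial elongation factor Ts, which recharges the factor Tu (Tufm) during protein synthesis in mitochondria, and it was the sole member called lower. It was at 22.4, 20.9, 25.4 and 22.7 FPKM in WAT 1 to 4, and at 14.5, 19.2, 12.9, 17.4, 14.7, 13.9, 13.9 and 12.4 FPKM in LPS 1 to 8. All tumours lay below all WAT libraries, though LPS 2 came near. The mean was 22.8 ± 1.87 FPKM (SD, n = 4) in WAT and 14.9 ± 2.29 (SD, n = 8) in LPS, a log2 difference of -0.60 ± 0.12 (SE; limma, adjusted p = 0.00122). Other factors of the same process fell too: all 9 tested mitochondrial translation factors were called lower, against 27.0% of all tested rows. They were Tufm, Gfm1, Gfm2, Mtif2, Mtif3, Mtrf1, Mtrf1l, Mrrf and Guf1, with a median log2 difference of -0.63. All 9 were also lower after quantile normalization and without LPS 5, and 5 of 9 without WAT 1 and WAT 4. Tufm fell from 21.3 ± 2.89 to 6.69 ± 1.09 FPKM (log2 difference -1.54, limma adjusted p = 7.63e-07). The factors other than Tufm were named after their values were seen.

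Avil, advillin, an actin-binding protein of sensory neurons, overlaps Tsfm on the other strand and was below 1 FPKM throughout. It was at 0.215, 0.177, 0.215 and 0.291 FPKM in WAT 1 to 4, and at 0.0559, 0.112, 0.120, 0.124, 0.149, 0.0884, 0.131 and 0.326 FPKM in LPS 1 to 8. In 7 of 8 tumours it lay below the lowest WAT library, and LPS 8, the tumour with the most muscle and mast cell RNA by the marker sums, held the highest value of all 12. Where Avil and Tsfm overlap, reads may be shared, and at such levels the values rest on few fragments. Of its 5 tested relatives that cut or cap actin filaments, none was higher (2 after quantile normalization) and 1 was lower: Gsn, gelsolin, fell from 1094 ± 168 to 97.9 ± 47.9 FPKM (log2 difference -3.61, limma adjusted p = 2.18e-06). Capg was not called at 23.7 and 65.0 FPKM (limma, adjusted p = 0.0647).

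**Figure D2:**
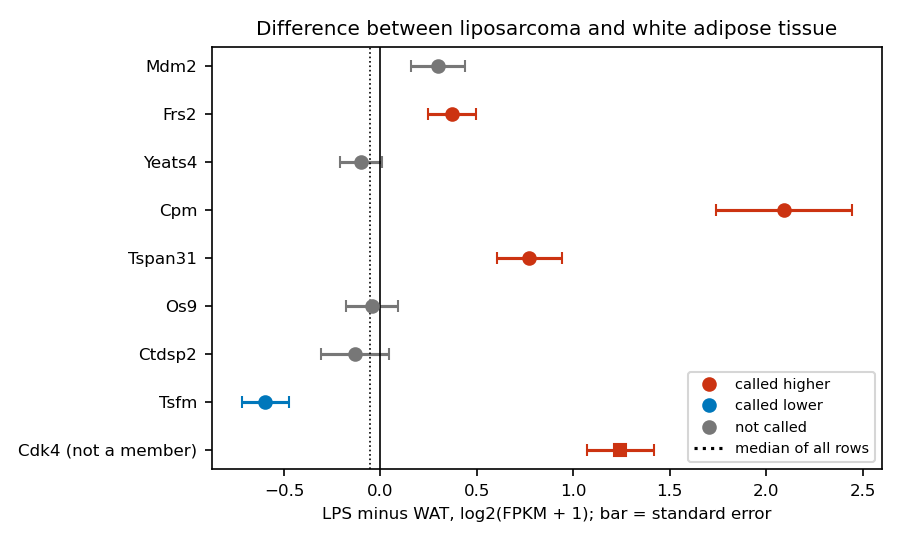
Difference of LPS and WAT for the 8 tested orthologs and Cdk4 on the log2(FPKM + 1) scale, with SE bars from the limma fit; colour marks the call at an adjusted p of 0.05 and the dotted line the median of all tested rows (-0.05). Cpm (2.09), Cdk4 (1.24), Tspan31 (0.77) and Frs2 (0.37) lie to the right of 0 with a call, Tsfm (-0.60) to the left, and Mdm2, Yeats4, Os9 and Ctdsp2 carry no call.

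By level, the order in the tumours from high to low was Tspan31 (median 47.4 FPKM), Mdm2 (27.2), the joined Ctdsp2 row (24.4), Os9 (20.3), Cpm (15.4), Tsfm (14.2), Yeats4 (12.7), Frs2 (11.7), Avil (0.122) and Hmga2 (0.0981). Each pair of neighbours in this order overlapped over the 8 tumours except Frs2 with Avil, and Tspan31 with Mdm2 overlapped only through LPS 7, whose 37.2 FPKM of Mdm2 exceeded the Tspan31 level of LPS 2 and LPS 5. The 2 genes at the bottom are the sole members below 1 FPKM in every library.

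If few of the tumours carried the human pattern, each of those would show neighbouring members that are all high against the other tumours. The excess of a tumour was taken as its log2(FPKM + 1) minus the median of the other 7 tumours, with 1 as the threshold. No tumour had a joint excess of neighbouring members past that threshold. A gain shared by most of the tumours would raise the median as well and leave no excess. The measure is therefore blind to a shared gain, which was not tested by it. Of 64 pairs of a tested member and a tumour, 1 was past the threshold, Cpm in LPS 3 at 1.37 (2.59-fold on this scale), whereas 4.02% of the pairs of any tested row and a tumour were past it. Cpm in LPS 4, at 0.83, was the nearest below. At a threshold of 0.58, 3 pairs passed, all of them Cpm, in LPS 3, LPS 4 and LPS 6, against 10.4% of the pairs of any row. In LPS 3 the other members of the same segment lay on both sides of 0, Mdm2 at -0.22, Yeats4 at -0.26 and Frs2 at 0.23. Of the genes around them, Rab3ip, a regulator of Rab8, lay at 0.97 there and Slc35e3, next to Mdm2, at 0.38 (both named after their values were seen).

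**Figure D3:**
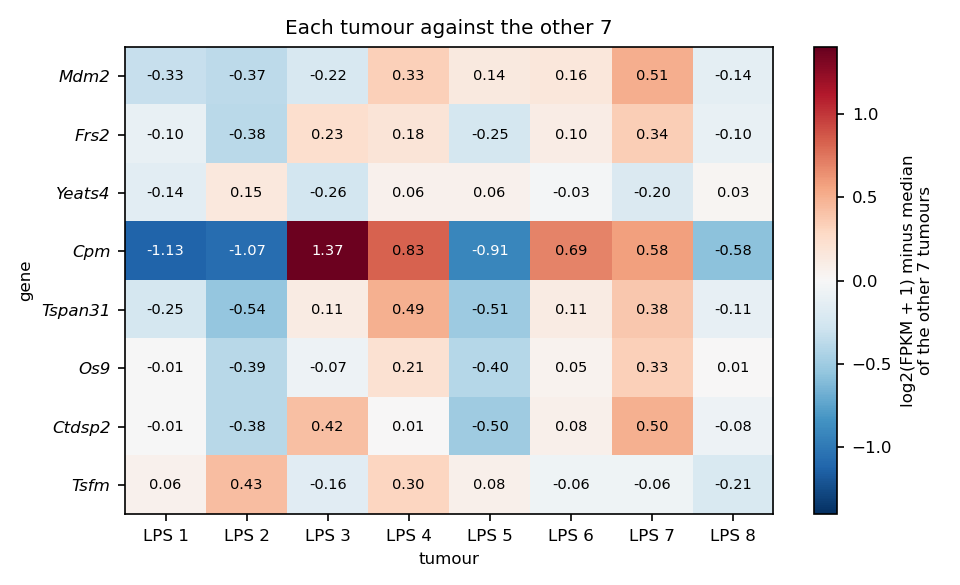
Excess of each tumour over the median of the other 7 tumours on the log2(FPKM + 1) scale, for the 8 tested orthologs (rows) in the 8 tumours (columns); red is above and blue below. Cpm in LPS 3 (1.37) is the sole cell past 1; in the LPS 4 column all 8 cells lie above 0, from 0.01 to 0.83.

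Below the threshold, tumours still differed in how many members were high. Of the 8 tested members, the number above the median of the other 7 tumours was 1, 2, 4, 8, 3, 6, 6 and 2 in LPS 1 to 8. The share of all tested rows above it was 56.5%, 47.0%, 56.8%, 50.5%, 29.8%, 54.0%, 52.1% and 51.2% in the same order. LPS 4 had all 8 members above, but by small amounts, from 0.01 for the joined Ctdsp2 row and 0.06 for Yeats4 to 0.49 for Tspan31 and 0.83 for Cpm. LPS 7 was the highest tumour for Mdm2 (0.51), the joined Ctdsp2 row (0.50), Frs2 (0.34) and Os9 (0.33), while Yeats4 (-0.20) and Tsfm (-0.06) lay below there. LPS 2 was the lowest for Mdm2, Frs2 and Tspan31 and the highest for Yeats4 and Tsfm (after median-ratio scaling LPS 5 was the highest for Yeats4). These counts were chosen after the values were seen and have no test.

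Neighbouring genes that are not members were read in the same way and with the same limit, since an amplified segment would take them along. The segment of Frs2, Yeats4, Cpm and Mdm2 has 13 tested neighbours within 1 Mb, that of Hmga2 has 11 and that of the Cdk4 side 34. Neighbouring rows that join several genes were left out. Over members and neighbours, the median excess of a tumour ran from -0.16 to 0.14 in the segment of Mdm2 (17 rows), from -0.49 to 0.22 in that of Hmga2 (11 rows) and from -0.23 to 0.09 on the Cdk4 side (38 rows). Past the threshold of 1 were 3 of the pairs of a row and a tumour in the segment of Mdm2, 1 in that of Hmga2 and 9 on the Cdk4 side. In each segment this was a smaller share than the 4.02% of the pairs of any tested row and a tumour. The 3 in the segment of Mdm2 were Cpm in LPS 3 and Lyz2, the macrophage lysozyme, in LPS 1 and LPS 5. The 6 macrophage markers other than Lyz2 summed to 600.0 FPKM in LPS 1 and 299 in LPS 5, against 162 to 544 in the other 6 tumours.

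On the Cdk4 side, a few genes were high in LPS 4 and LPS 7 together. Agap2, a GTPase-activating protein whose gene lies between Cdk4 and Os9, was at 96.0 FPKM in LPS 4 and 71.6 in LPS 7, against 11.3 to 41.4 in the other tumours, an excess of 1.83 and 1.42. Slc26a10, a transporter-like gene, was at 5.74 and 5.64 FPKM in those tumours, an excess of 1.38 and 1.36. Gpr182, a chemokine scavenging receptor, had an excess of 1.28 in LPS 3 and 1.42 in LPS 7. Genes between and beside them were mixed. Of the 6 tested rows of a single gene name from Cdk4 to Slc26a10, 5 lay above 0 in both tumours, though Agap2 and Slc26a10 alone passed 1 in both. B4galnt1, a ganglioside synthase beside Slc26a10, lay at 0.59 in LPS 4 and 0.75 in LPS 7, Tspan31 at 0.49 and 0.38, and Os9 at 0.21 and 0.33. Cdk4 was the row that did not, at -0.08 and -0.77. Over all 38 rows of that side, 20 lay above 0 in LPS 4, 17 in LPS 7 and 10 in both. Of all tested rows, 50.5% lay above 0 in LPS 4 and 52.1% in LPS 7, so the side as a whole was near that background. The share of all rows above 0 in both is not given here. Also past 1 on that side were Prim1, at 1.70 in LPS 5 and 1.03 in LPS 2, and Mbd6, at 1.07 in LPS 3. These counts have no test, and these neighbours were named after their values were seen.

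Between the tissues, the neighbours went both ways as the members did. On the Cdk4 side 11 of 34 were called higher and 5 lower (median log2 difference 0.24), in the segment of Mdm2 3 of 13 higher and 5 lower, and in that of Hmga2 2 of 11 each way. Of all tested rows, 18.9% were called higher and 27.0% lower. Lyz1 and Kcnmb4 passed the filter through WAT alone, and Tbc1d30, Nxph4 and March9 through LPS alone, which favoured the direction of their calls. Ndufa4l2, a mitochondrial protein induced by low oxygen, rose from 7.78 ± 0.638 to 352 ± 58.3 FPKM (log2 difference 5.32, limma adjusted p = 1.32e-11). Dtx3, a ubiquitin ligase of the Deltex family whose fly founder acts in the Notch pathway, rose from 15.7 ± 2.02 to 217 ± 64.7 FPKM (log2 difference 3.65, limma adjusted p = 6.93e-08; named after its values were seen). Atp5b, a subunit of the ATP synthase, fell from 1453 ± 175 to 411 ± 78.8 FPKM (log2 difference -1.83, limma adjusted p = 1.71e-06). Beside Mdm2, Rap1b, a small GTPase, rose from 65.6 ± 7.57 to 119 ± 16.8 FPKM (limma, adjusted p = 0.000166) and Lyz1, a lysozyme, fell from 3.23 ± 1.11 to 0.180 ± 0.190 FPKM (limma, adjusted p = 2.86e-06). Beside Hmga2, Tbc1d30 rose from 0.451 ± 0.123 to 4.06 ± 1.54 FPKM (limma, adjusted p = 5.66e-05) and Rassf3 fell from 14.2 ± 2.197 to 8.67 ± 1.63 FPKM (limma, adjusted p = 0.00319).

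In the wider list of 48 tested mouse genes from the human chromosome arm around the amplified segment, 15 were higher and 10 lower (10 and 6 of 47 without WAT 1 and WAT 4), Ndufa4l2 and Slc16a7 being the farthest each way. Slc16a7, a pyruvate and lactate carrier, fell from 13.9 ± 2.37 to 1.07 ± 0.518 FPKM (log2 difference -2.88, limma adjusted p = 1.98e-07), and Lrp1 was not called at 70.7 and 85.2 FPKM (limma, adjusted p = 0.144). Genes of other segments that are amplified in human liposarcoma numbered 9 tested, of which 4 were higher and 1 lower (4 and 0 after quantile normalization). Pik3ca, the catalytic subunit of PI3 kinase, rose from 15.6 ± 0.953 to 36.2 ± 9.46 FPKM (limma, adjusted p = 0.000590). Vgll3, a partner of TEAD factors, fell from 1.38 ± 0.387 to 0.459 ± 0.749 FPKM (limma, adjusted p = 0.0302). It reached 1 FPKM in WAT 1 to 3 and in LPS 5, where it was highest of all 12 at 2.26 FPKM, so that it is not tested without LPS 5, and 0 genes of the list are lower then. Atf6 was not called at 11.5 and 14.4 FPKM (limma, adjusted p = 0.109).

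**Figure D4:**
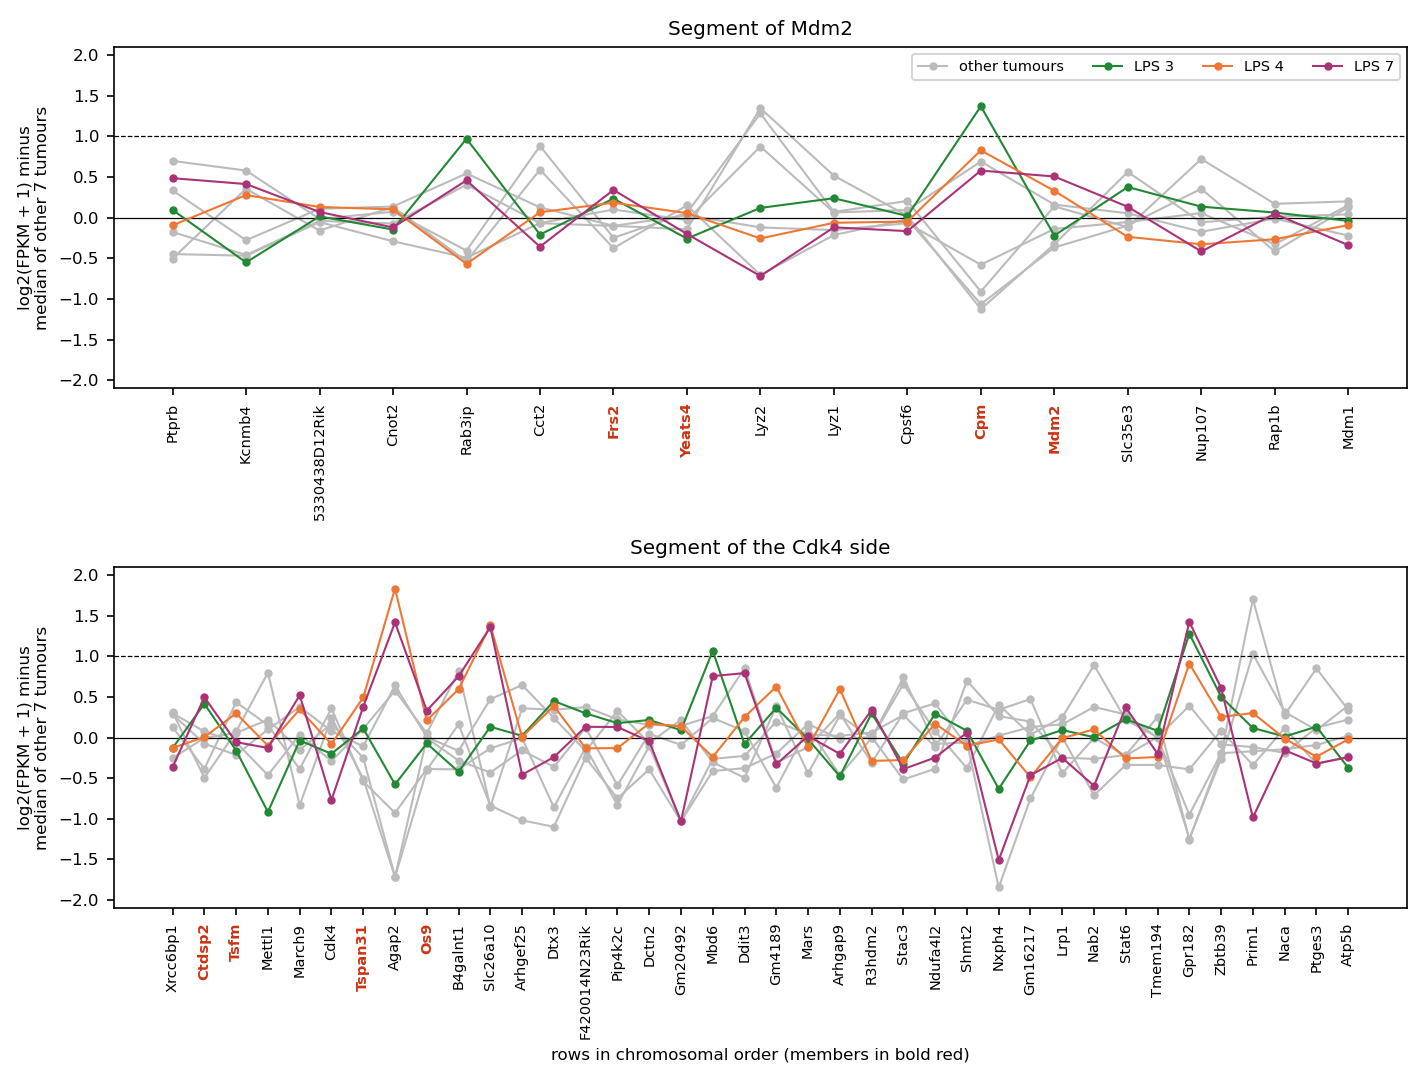
Excess over the median of the other 7 tumours, on the log2(FPKM + 1) scale as deposited, in the segment of Mdm2 (upper) and the Cdk4 side (lower). Shown are the tested members, in bold red, and all tested neighbours of a single gene name, in chromosomal order. Each line is a tumour, with LPS 3, LPS 4 and LPS 7 coloured, and the dashed line is the threshold of 1. Single genes such as Cpm (1.37 in LPS 3) and Agap2 (1.83 in LPS 4) are past it, while the rows directly beside them stay below.

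LPS 5 needs a separate account, because its FPKM lay lower over most rows: the median excess of all autosomal rows was -0.27. When each library was divided by its median ratio, the segment of Mdm2 had a median excess of 0.43 in LPS 5, with 15 of 17 rows above 0, and that of Hmga2 had 0.39, with 10 of 11 rows above 0. The Cdk4 side had 0.03 there. Mdm2 itself lay at 0.43, Yeats4 at 0.36 and Tsfm at 0.37 in LPS 5 on the scaled values, Frs2 at 0.05, and Os9 (-0.11), Tspan31 (-0.17), the joined Ctdsp2 row (-0.20) and Cpm (-0.62) below 0. After this was seen, the median excess was taken for each of the 19 autosomes in each of the 8 tumours. Chromosome 10 as a whole, with 689 tested rows, lay at 0.27 in LPS 5, the highest of its 19 autosomes, the others running from -0.15 to 0.17. In the other 7 tumours chromosome 10 lay between -0.10 and 0.04.

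The excess of LPS 5 was not local to the members. Along chromosome 10 in bins of 10 Mb, LPS 5 was the highest of the 8 tumours in each of the 12 bins with at least 20 rows, at 0.21 to 0.55; 2 of the 14 bins held fewer rows and were left out. Of the 689 rows, 489 (71.0%) lay above 0 in LPS 5, against 48.4% of all tested rows in that library. The bin that holds Mdm2, Cpm, Yeats4 and Frs2 was at 0.37 and the bin with the Cdk4 side at 0.21. On the FPKM as deposited, chromosome 10 lay at 0.01 in LPS 5, again the highest of its 19 autosomes, the others lying between -0.40 and -0.06. With rows of at least 5 FPKM on average it lay at 0.32 (458 rows), again the highest of the 19. Other tumours had other autosomes that stood apart, as chromosome 12 in LPS 8 at 0.35 and chromosome 19 in LPS 4 at -0.31. In WAT, each library set against the other 3 on the same scale gave no autosome outside -0.04 to 0.03. What gives these chromosome-wide differences was not tested, and no DNA was measured.

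**Figure D5:**
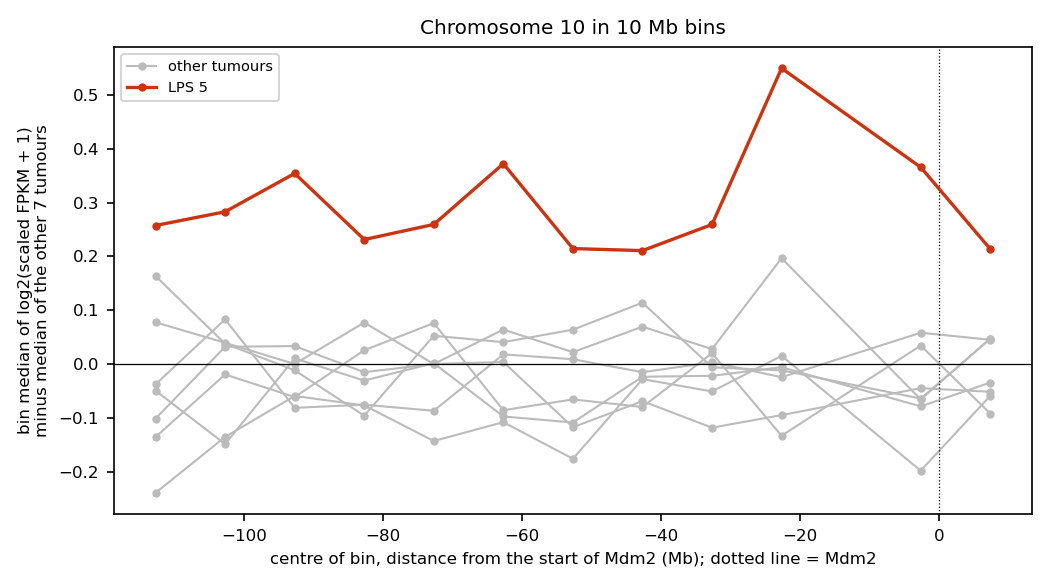
Median excess over the other 7 tumours, on log2(FPKM + 1) after median-ratio scaling, in bins of 10 Mb along chromosome 10 with at least 20 rows, placed by distance from the start of Mdm2; red is LPS 5 and grey the other 7 tumours. LPS 5 lies between 0.21 and 0.55 in all 12 bins, above every other tumour.

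The genes most like the 3 members with the widest range over the tumours were found by Pearson r of log2(FPKM + 1) over the 8 LPS libraries among 14173 or 14174 other rows, as a description, since the points share libraries and scaling. With so many rows and 8 points, the highest r can be large through the picking alone. Whether these exceed that was not tested. Cpm was most like Gm22739 (0.96), Gm14211 (0.95) and C230066G23Rik (0.94), rows of low level that were highest in LPS 3 as Cpm was. The joined Ctdsp2 row was most like Plcg1 (0.99) and Epn1 (0.98), both highest in LPS 7. Plcg1, a phospholipase downstream of growth factor receptors, ran from 26.5 to 76.3 FPKM over the tumours. Tspan31 was most like Ncoa3 (0.97), Cebpg (0.97) and Gm16573 (0.96), of which Ncoa3, a nuclear receptor coactivator, and Cebpg were highest in LPS 4 as Tspan31 was.

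Age, 9 to 12 months among the tumours, was called for no member. Slopes of the 8 tested members ran from -0.02 for Yeats4 to 0.14 for Tspan31 on the log2 scale per month, with a median of 0.06 against -0.02 over all 13280 rows tested. No member had an unadjusted p below 0.05. By limma 0.00% of rows were called after adjustment, and 228 of the 13280 had an unadjusted p below 0.05. With 8 tumours and 4 ages, small slopes may have gone undetected.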

How the data were processed

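The deposited table gives FPKM per gene locus and library, as the authors made it. Build GRCm38 and Cuffdiff 2.2.1, Cufflinks 2.2.1, TopHat2 2.1.0, Bowtie2 and Trimmomatic are named, without their order, per the submitters' processing notes. Scaling between libraries and the use of strand in counting are not given in the sources used here. Per the labels' protocols, stranded libraries followed removal of ribosomal RNA. No fragment counts are in the values used, so depth was approached through the lowest values of 2154 genes of at least 2000 bases, and no counting interval is given. The labels call the libraries biological replicates.

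LPS and WAT were compared by two-sided limma tests (3.58.1; R 4.3.3) of log2(FPKM + 1), empirical Bayes being robust and with trend. A row entered if 4 or more of 12 libraries reached 1 FPKM. A row could thus enter through 1 group alone, which favoured the direction of its call. P-values were adjusted by Benjamini-Hochberg at 0.05. Age was a slope per month within LPS over rows at 1 FPKM in at least 4 of 8. A log2 difference on this scale understates changes of low genes. The fits were tested on simulated data. Excess has no test. Members, lists and tests were chosen with earlier results of these data known. Segments join members under 2 Mb apart, and neighbours are tested rows of a single gene name within 1 Mb.

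Named genes were all members, Cdk4, in each segment the called neighbour farthest each way, from each list the called gene farthest each way and the most abundant one not called (given as sums for cell markers), and the 3 rows most like each of the 3 members of widest range, of which 1 is not reported here. Rows that join several genes were left out of lists. That choice, the counts above the median of the other tumours, the autosome medians and bins, the promoters shown and the names so marked came after values were seen. Alternatives were other pseudocounts, filters, scalings and tests, a replicate block, and leaving out libraries.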

Additional observations from a re-analysis of the deposited data

Results flagged for a closer look

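Hmga2 in LPS 5 lay at 0.396 FPKM, far above the next tumour for the range of the 8 tumours; LPS 5 also had 754 of 1408 receptor rows above 0. Avil in LPS 8 lay at 0.326 FPKM, likewise apart from the other 7 tumours; muscle and mast cell markers were also highest among the tumours in LPS 8, at 315 and 143 FPKM. Both genes are below 1 FPKM in all libraries. The members and Cdk4 gave 22 groups of 4 or 8 libraries to look at, of which 2 held a sample so far out; chance alone gives about 1 in 20.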

How the results depend on the processing

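Over 24 alternatives, Cpm and Tspan31 stayed higher and past the threshold and Yeats4 and Os9 stayed uncalled, as did the joined Ctdsp2 row over 23. Mdm2 was called with array quality weights alone. The replicate numbers did not pair the libraries (correlations of deviations -0.02 to 0.09); with a replicate block 0 members were lower, Tsfm having an adjusted p of 0.0548 in limma, and Frs2 was at 0.0634. Leaving out each library in turn gave 2 to 3 members higher and 1 lower, 2156 to 3215 rows higher and 2902 to 4039 lower, against 2806 and 4007, and 0 rows for age. Without WAT 1 and WAT 4 together, the libraries with the highest muscle marker sums, 1402 rows were higher and 2114 lower; fewer controls remain. Leaving out any 1 WAT library lowered the count of lower genes from 4 to between 0 and 2 for the genes tied to HMGA2. For carboxypeptidases that count fell from 5 to 2. Part of both drops was fixed by the filter, since genes at 1 FPKM in the 4 WAT libraries alone then left the test. The tested genes fell from 9 to 7 for the HMGA2 list and from 7 to 5 for carboxypeptidases. The count of lower genes also fell from 4 to 2 for endoplasmic reticulum degradation. It fell from 2 to 0 or 1 for the TIP60 and SRCAP subunits and for the phosphatase family. Without LPS 5, the genes called higher numbered 5 in place of 2 for endoplasmic reticulum degradation, 7 in place of 4 for TIP60 and SRCAP, and 2 in place of 1 for the phosphatase family. The median of all rows was -0.05 as deposited and 0.10 after quantile normalization, and the share of calls that were lower was 58.8% and 45.2%. Median-ratio scaling gave 52.98% and no filter 67.1%. Lowering the excess threshold to log2 0.58 gave 3 pairs in place of 1. The chromosome 10 median of LPS 5, 0.27, was 0.01 on FPKM as deposited, where all other autosomes of that library lie below 0, 0.27 with quantile normalization and 0.33 with a pseudocount of 0.1; these settings were added after seeing the data. Hmga2 and Avil, below 1 FPKM, allow no statement on change.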
